A study of Mus musculus with 6 samples.

Results

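The 10 genes described here are growth arrest and cell cycle inhibitor genes with their p53 axis: Gadd45a, Gadd45b and Gadd45g, the CIP/KIP inhibitor genes Cdkn1a, Cdkn1b and Cdkn1c, the D cyclin genes Ccnd1 and Ccnd2, and Trp53 and Mdm2. They were taken by symbol from a table of 24498 genes, and the set was chosen with earlier results of these data known. All 10 were present and passed the filter on low counts, which 13846 genes passed in all.

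A cell leaves the resting state when D cyclins bind and activate the kinases CDK4 and CDK6, which inactivate the retinoblastoma protein and free E2F factors to switch on DNA replication genes. The CIP/KIP proteins p21, p27 and p57, made by Cdkn1a, Cdkn1b and Cdkn1c, bind cyclin and CDK complexes and restrain cyclin E and CDK2 in particular. The transcription factor p53, made by Trp53, induces Cdkn1a and Gadd45a after DNA damage and also induces Mdm2, whose product marks p53 for degradation. GADD45 proteins are small stress sensors that bind PCNA, p21 and the kinase MAP3K4 upstream of p38 and JNK. In the prostate, secretory luminal cells need androgen, and the gland regresses after castration to a small, mostly resting epithelium.

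RNA was sequenced in bulk from marker-positive epithelial cells sorted from the prostates of male mice of 7 to 13 weeks. The Nkx groups came from mice of the line labelled Nkx, with a CreER(T2) and an EYFP reporter in the Rosa26 locus, and the Clu group from Clu-CreER(T2) mice with a tdTomato reporter in the same locus, so each group carried an inducible Cre and a fluorescent reporter. Mice were left intact or were castrated at 8 weeks of age, and tissue was taken 4 weeks later. Each of the 3 groups (Nkx intact, Nkx castrate, Clu intact) had 2 libraries, which are told apart by number. The Cre marks the cells in which its promoter was active at induction, together with their descendants, and the labels give neither the time of induction nor whether the libraries of each group were from different animals. The p-values may therefore rest on a spread that is only technical. No castrated Clu group was analysed here. In Clu intact against Nkx castrate the line, the reporter and castration therefore change together and cannot be told apart. Between the intact groups the line, its Cre and the reporter likewise change together and cannot be told apart.

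Libraries held between 10220118 and 17412874 counts. Levels are given as CPM, counts divided by a library total that was adjusted by TMM, a scaling that assumes most genes do not differ. Epithelial genes Epcam, Krt8 and Krt18 were at 336 CPM or more in every library, and Clu was highest in Clu intact (1808 and 1934 CPM, against 245 to 844 CPM in the Nkx libraries). Nkx castrate 1 stood apart in RNA of other cell types. The sum of 15 leukocyte markers was 240 CPM in it and 35.0 CPM in Nkx castrate 2, with 133 to 153 CPM in Nkx intact and 32.2 to 33.2 CPM in Clu intact. For 12 stromal markers (fibroblasts and smooth muscle) its sum was 2210 CPM, where the other 5 libraries had 552 to 762 CPM. The sum does not speak for each marker. By the edgeR test described below, 5 of the 12 were called higher with castration and 0 lower (41.7%, beside 8.61% of all tested genes). Sums over 12 endothelial markers were 1148 and 464 CPM for Clu intact, 499 and 69.4 CPM for Nkx castrate and 86.5 and 56.0 CPM for Nkx intact. The 10 basal markers summed to less in Nkx castrate 2 (3351 CPM) and Clu intact (3377 and 3527 CPM) than elsewhere. Their sum was 5401 CPM in Nkx castrate 1, while the Nkx intact libraries reached 5661 and 5807 CPM. The 8 epithelial and luminal markers had their lowest sums in Nkx intact (4607 and 4429 CPM). These rose to 7040 and 8702 CPM in Nkx castrate, with Clu intact between them at 5513 and 6232 CPM. The part of these differences in the values of the 10 genes was not tested. The leukocyte gene Ptprc had counts in every library, Tyrobp was at 0 in both Clu intact libraries, and Cldn5 was at 0 in Nkx intact 2. In bulk RNA, fewer cells of a type and less RNA per cell cannot be told apart.

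The 250 bases before the start sites of the Gadd45 genes are shown because Gadd45a was called with castration, and its paralogs are set beside it. They are the RefSeq windows on GRCm38.p6, an earlier build than that of the counts, and 7 of the 10 genes had a window. Capitals mark the octamer ATTTGCAT and the CCAAT box, each read on both strands.
Gadd45a, chr6:67037408-67037657, minus strand: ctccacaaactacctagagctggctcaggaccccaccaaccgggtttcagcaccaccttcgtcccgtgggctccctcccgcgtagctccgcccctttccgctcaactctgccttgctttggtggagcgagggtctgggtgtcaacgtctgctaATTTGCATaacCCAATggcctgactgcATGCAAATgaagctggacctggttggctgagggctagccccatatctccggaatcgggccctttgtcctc
Gadd45b, chr10:80929841-80930090, plus strand: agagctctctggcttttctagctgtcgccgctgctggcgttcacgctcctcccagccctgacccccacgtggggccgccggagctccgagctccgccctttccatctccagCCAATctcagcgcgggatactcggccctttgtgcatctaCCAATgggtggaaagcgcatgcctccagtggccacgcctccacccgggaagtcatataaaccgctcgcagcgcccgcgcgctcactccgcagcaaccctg
Gadd45g, chr13:51846425-51846674, plus strand: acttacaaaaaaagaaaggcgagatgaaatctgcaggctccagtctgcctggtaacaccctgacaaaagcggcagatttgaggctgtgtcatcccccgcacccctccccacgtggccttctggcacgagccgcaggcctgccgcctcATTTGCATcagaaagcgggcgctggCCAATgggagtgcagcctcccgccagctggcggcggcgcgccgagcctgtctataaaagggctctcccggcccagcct
The octamer was found in 2 places before Gadd45a, in 1 before Gadd45g and in none before Gadd45b, and 1.6% of the 32817 windows of this length held it. The CCAAT box was found in each of these windows and in 33.8% of all windows. The E box CACGTG was found once before Gadd45b and once before Gadd45g (6.02% of all windows). The AP-1 site TGANTCA (6.75% of windows), the cyclic AMP response element TGACGTCA (1.55%) and an ungapped p53 response element (0.00914%) were not found in these windows, and no match overlapped another. A match describes letters in a window and not a bound site.

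After castration, Gadd45a rose from a mean of 30.9 to 278 CPM and Ccnd1 fell 1.72-fold in Nkx-marked cells, and the other 8 genes were not called. By the quasi-likelihood F test of edgeR, adjusted over all tested genes by the Benjamini-Hochberg method, 8.61% of genes were called at an adjusted p under 0.05 in this comparison (4.02% higher, 4.59% lower). Clu intact cells differed from Nkx intact cells in 2 of the 10 genes, with Ccnd1 higher and Mdm2 lower, against a background of 11.3% (6.29% higher, 5% lower). Clu intact cells differed from Nkx castrate cells in 5 of the 10, with Ccnd1 higher and Gadd45a, Cdkn1a, Cdkn1c and Trp53 lower, against a background of 16.9% (8.82% higher, 8.1% lower). The median log2 fold change of the 10 genes was 0.64, -0.40 and -1.07 in the 3 comparisons in that order, beside 0.047, -0.0078 and -0.0030 over all tested genes. These comparisons share groups, so they are not independent of each other. The libraries of the groups did not overlap in 9, 8 and 9 of the 10 genes, where 49.9%, 63.2% and 61.4% of all tested genes did not overlap. Gadd45b, Gadd45g, Cdkn1b and Ccnd2 were called in none of the comparisons.

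**Figure D1:**
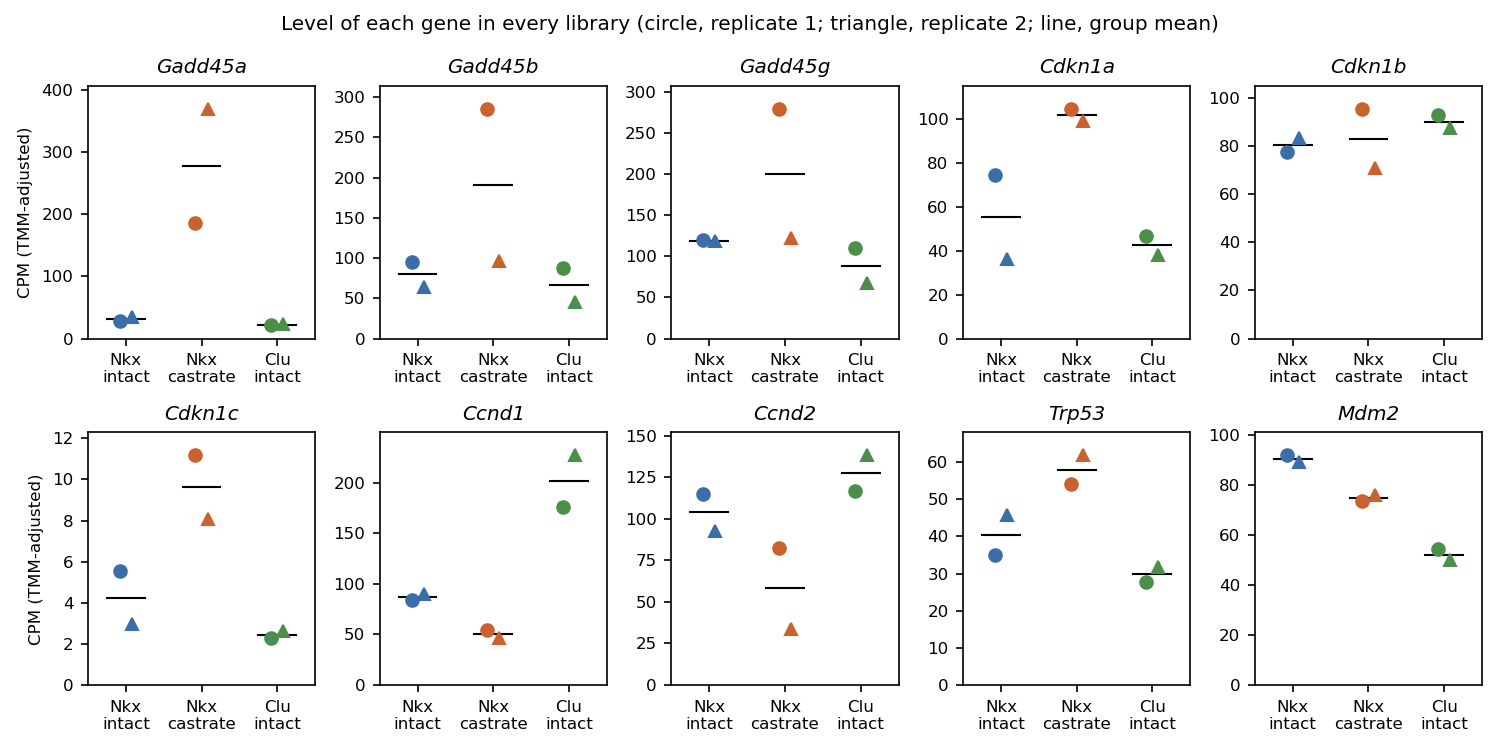
CPM of each of the 10 genes (vertical axis, from 0) in the 2 libraries of each group (horizontal axis), with circles for replicate 1, triangles for replicate 2 and a line at the group mean. Gadd45a stands at 186 and 370 CPM in Nkx castrate and at 34.3 CPM or less in the other 4 libraries, and Ccnd1 is highest in both Clu intact libraries.

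**Figure D2:**
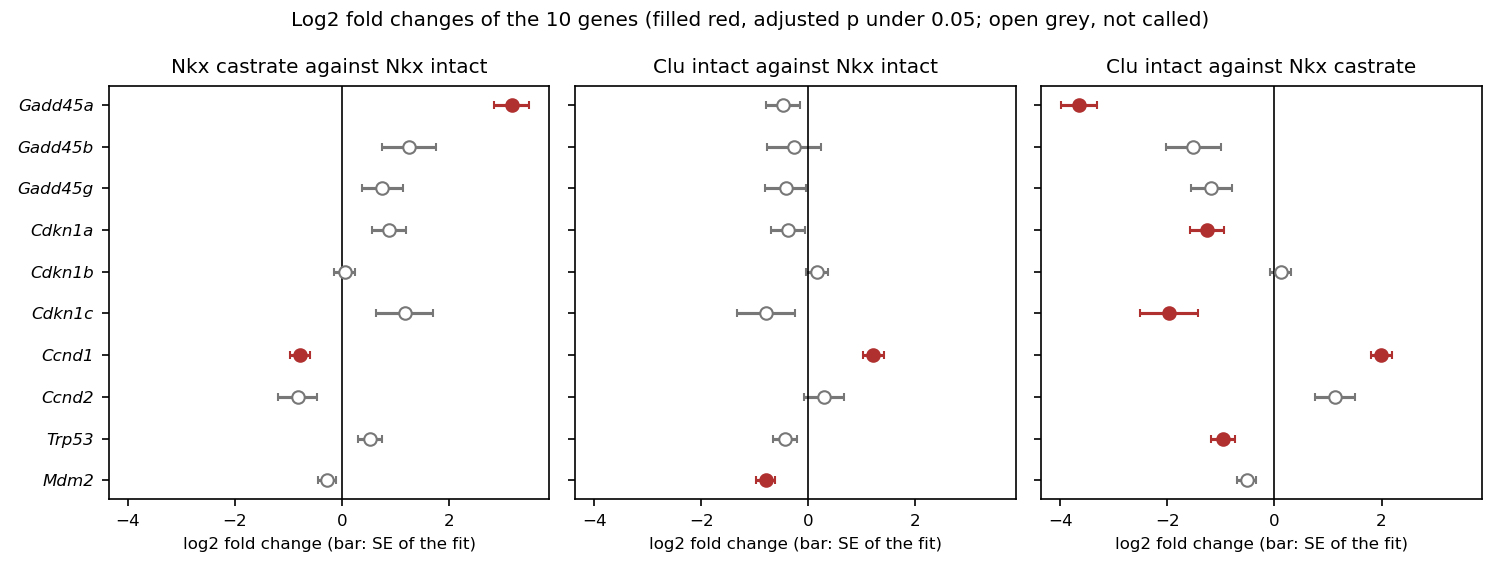
Log2 fold change of each gene (horizontal axis) in the 3 comparisons, positive where the first-named group is higher, with bars of 1 SE from the fit. Filled red points had an adjusted p under 0.05, and the point farthest from 0 in the outer panels is Gadd45a, at 3.17 and -3.65.

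Gadd45a, the family member that p53 is known to induce after DNA damage, had the largest change of the 10 genes. It was at 27.5 and 34.3 CPM in intact and 186 and 370 CPM in castrate Nkx-marked cells, and 21.7 and 22.7 CPM in Clu-marked cells. Both castrate libraries were far above the other 4, and they differed 1.98-fold from each other. The means were 30.9 ± 4.82, 278 ± 130 and 22.2 ± 0.698 CPM (SD, n = 2). The log2 fold change was 3.17 (SE 0.33, adjusted p = 0.00219) with castration and -3.65 (SE 0.34, adjusted p = 0.000665) for Clu intact against Nkx castrate. Clu intact against Nkx intact gave -0.48 (SE 0.32, adjusted p = 0.395), so these neighbours in the order of levels were not told apart by the test. The value against Nkx castrate was -3.06 when Nkx castrate 2 was left out, and called. Gadd45a stayed called in the first comparison without any of the 6 libraries, at 2.59 without Nkx castrate 2 and 3.58 without Nkx castrate 1, the library with more leukocyte, stromal and endothelial RNA. In the annotation of the earlier build, 337 of its 1764 exon bases overlap an antisense transcript. Such overlaps also cover 625 of the 2039 exon bases of Cdkn1c, 273 of 3553 of Cdkn1a and 740 of 9409 of Ccnd2. The strand setting of the counting is not given in the sources used here, so reads of such pairs may not be told apart.

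Gadd45b and Gadd45g, which are known as genes of stress and cytokine response, differed mainly between the Nkx castrate libraries. Gadd45b was at 95.0 and 64.4 CPM in intact and 285 and 95.9 CPM in castrate Nkx-marked cells, and 87.5 and 45.6 CPM in Clu-marked cells. The lower castrate library thus lay next to the higher intact one. Gadd45g was at 120 and 118 CPM in intact and 280 and 122 CPM in castrate Nkx-marked cells, and 110 and 67.5 CPM in Clu-marked cells. Again only Nkx castrate 1 stood well above the rest. The log2 fold changes with castration were 1.26 (SE 0.51, adjusted p = 0.182) for Gadd45b and 0.76 (SE 0.38, adjusted p = 0.283) for Gadd45g. Without Nkx castrate 1 they were 0.27 and 0.040. Without Nkx castrate 2 they were 1.83 and 1.22. Each of these fits left 1 Nkx castrate library, so its spread was taken from the other groups. Nkx castrate 1 also had the highest sums of leukocyte and stromal markers, whose part in these values was not tested. Clu intact against Nkx castrate gave -1.52 (SE 0.51, adjusted p = 0.0803) for Gadd45b and -1.18 (SE 0.38, adjusted p = 0.0731) for Gadd45g. DESeq2 called both (adjusted p = 0.00997 and 0.0129). In edgeR these became -0.52 and -0.46 without Nkx castrate 1, and -2.09 and -1.64 without Nkx castrate 2. Clu intact and Nkx intact overlapped in Gadd45b (log2 fold change -0.26, SE 0.50) and did not overlap in Gadd45g (-0.42, SE 0.38), and neither was called.

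Levels per kilobase divide CPM by the length of all annotated exons of a gene, whichever transcript is made. Ranks between genes are therefore approximate. By this measure, Gadd45a was the lowest of its family in both intact groups. In Nkx intact the levels were 17.5 ± 2.73 CPM per kilobase for Gadd45a, 50.2 ± 13.6 for Gadd45b and 102 ± 0.861 for Gadd45g (SD, n = 2). In Clu intact they were 12.6 ± 0.396, 41.9 ± 18.6 and 75.8 ± 25.8 in the same order. In Nkx castrate they were 158 ± 73.5, 120 ± 84.3 and 171 ± 94.8, so that the genes lay within each other's spread. Gadd45a went from 105.6 to 209.5 CPM per kilobase between Nkx castrate 1 and 2, while Gadd45b went from 180 to 60.3 and Gadd45g from 238 to 104. The castrate library that was higher in Gadd45a was thus the lower in both of its paralogs.

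Among the CIP/KIP genes, Cdkn1a and Cdkn1c were lower in Clu intact than in Nkx castrate, and Cdkn1b was called in no comparison. Cdkn1a, which makes p21, was at 74.6 and 36.2 CPM in intact and 105 and 99.5 CPM in castrate Nkx-marked cells, and 46.7 and 38.3 CPM in Clu-marked cells. Both castrate libraries were the highest of the 6, and the Nkx intact pair differed 2.06-fold. Clu intact against Nkx castrate gave a log2 fold change of -1.26 (SE 0.32, adjusted p = 0.0332), a 2.40-fold lower level. Castration gave 0.88 (SE 0.32, adjusted p = 0.146), which was not called, and Clu intact against Nkx intact gave -0.38 (SE 0.32, adjusted p = 0.512). The call between Clu intact and Nkx castrate ended without Clu intact 1 (adjusted p = 0.109) or Clu intact 2 (adjusted p = 0.23). Leaving out Nkx intact 2 or Nkx intact 1 gave castration values of 0.45 and 1.48, neither of them called.

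Cdkn1c, the imprinted gene of p57, was scarce, with 27 to 199 counts in a library, and has the largest antisense overlap of the 10 genes as a share of its exons. It was at 5.55 and 2.96 CPM in intact and 11.2 and 8.06 CPM in castrate Nkx-marked cells, and 2.28 and 2.63 CPM in Clu-marked cells. The order was the same as for Cdkn1a, with no overlap between groups. Clu intact was 3.91-fold lower than Nkx castrate (log2 fold change -1.97, SE 0.55, adjusted p = 0.0446). That call lies near the threshold and was lost when any library other than Nkx castrate 2 was left out, with adjusted p between 0.0544 and 0.229, and with library totals as the only scaling (adjusted p = 0.051), with limma-voom (adjusted p = 0.0547) or with only the groups compared in the fit (adjusted p = 0.0561). Castration gave 1.17 (SE 0.53, adjusted p = 0.231) and Clu intact against Nkx intact -0.79 (SE 0.54, adjusted p = 0.41). The latter was -0.26 without Nkx intact 1.

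Cdkn1b, whose product p27 is controlled largely by protein degradation, was at 77.7 and 83.4 CPM in intact and 95.5 and 70.8 CPM in castrate Nkx-marked cells, and 93.1 and 87.5 CPM in Clu-marked cells. The castrate libraries were the highest and the lowest of the 6. Its log2 fold changes were 0.047 (SE 0.20) with castration, 0.17 (SE 0.20) between the intact groups and 0.12 (SE 0.20) for Clu intact against Nkx castrate, with adjusted p of 0.925, 0.656 and 0.727. Per kilobase of exon, Cdkn1b (17.7 ± 0.884 CPM, SD, n = 2) and Cdkn1a (15.6 ± 7.63) were within each other's spread in Nkx intact. In Nkx castrate Cdkn1a was above Cdkn1b, at 28.7 ± 1.05 against 18.3 ± 3.84 CPM per kilobase, and in Clu intact it was below, at 12.0 ± 1.68 against 19.8 ± 0.867. Cdkn1c was between 1.20 and 4.71 CPM per kilobase in the group means.

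Ccnd1, the cyclin D1 gene, had the reverse order of Gadd45a among the groups. It was at 84.4 and 89.6 CPM in intact and 54.8 and 46.3 CPM in castrate Nkx-marked cells, and 176 and 227 CPM in Clu-marked cells. No groups overlapped. Clu intact was 3.99-fold above Nkx castrate (log2 fold change 1.99, SE 0.20, adjusted p = 0.000849) and 2.32-fold above Nkx intact (1.21, SE 0.19, adjusted p = 0.00761). Nkx castrate was 1.72-fold below Nkx intact (-0.78, SE 0.19, adjusted p = 0.0475). The first of these calls held without any library. The comparison of the intact groups lost its call without Nkx intact 1, Nkx intact 2 or Clu intact 2 (adjusted p = 0.0893, 0.0792 and 0.0818). The castration call was at the threshold. It was lost with RLE scaling (adjusted p = 0.0513), with upper quartile scaling (adjusted p = 0.0623), with limma-voom (adjusted p = 0.0593) and with only the groups compared in the fit (adjusted p = 0.0978). Leaving out either Nkx intact or either Clu intact library also ended it. Over all 16 alternatives, with the call lost or kept, the log2 fold change lay between -0.91 and -0.67. Endothelial marker sums were higher in both Clu intact libraries than in either Nkx intact library, and their part in the Ccnd1 values was not tested. A part of the Ccnd1 exons, 1100 of 4709 bases in the earlier annotation, overlaps LTO1 on the opposite strand, which had 187 to 275 counts against 626 to 2413 for Ccnd1.

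Ccnd2, which makes cyclin D2, was at 115 and 92.7 CPM in intact and 82.7 and 33.9 CPM in castrate Nkx-marked cells, and 117 and 138 CPM in Clu-marked cells. Both castrate libraries were the lowest, and they differed 2.44-fold. The log2 fold changes were -0.83 (SE 0.37, adjusted p = 0.227) with castration, 0.29 (SE 0.37, adjusted p = 0.668) between the intact groups and 1.12 (SE 0.37, adjusted p = 0.0761) for Clu intact against Nkx castrate, which DESeq2 called (adjusted p = 0.0235). The castration value was -1.61 and called without Nkx castrate 1 (adjusted p = 0.000371), and -0.34 without Nkx castrate 2. The value for Clu intact against Nkx castrate was 1.91 without Nkx castrate 1 (adjusted p = 8.13e-05) and 0.63 without Nkx castrate 2 (adjusted p = 0.046), both called. Nkx castrate 1, the higher castrate library in Ccnd2, was also the higher in leukocyte, stromal and endothelial markers, whose part in the value was not tested. Per kilobase of exon, Ccnd1 was above Ccnd2 in each group mean. In Nkx intact the levels were 18.5 ± 0.784 against 11.0 ± 1.67 CPM (SD, n = 2). In Nkx castrate they were 10.7 ± 1.28 against 6.20 ± 3.66, and in Clu intact 42.8 ± 7.64 against 13.5 ± 1.61. In CPM not divided by length, Ccnd1 was below Ccnd2 in the means of Nkx intact (87.0 against 104) and Nkx castrate (50.5 against 58.3). In Clu intact it was above, at 202 against 127 CPM.

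Trp53 and Mdm2, the factor and its antagonist, were ordered differently. Trp53 was at 35.0 and 45.8 CPM in intact and 54.2 and 61.8 CPM in castrate Nkx-marked cells, and 27.8 and 31.9 CPM in Clu-marked cells. No groups overlapped. Clu intact was 1.94-fold below Nkx castrate (log2 fold change -0.96, SE 0.23, adjusted p = 0.0248), a call that ended without Clu intact 1 (adjusted p = 0.204) or Clu intact 2 (adjusted p = 0.15). Neither castration (0.52, SE 0.22, adjusted p = 0.211) nor the comparison of the intact groups (-0.44, SE 0.23, adjusted p = 0.269) was called.

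Mdm2 was at 91.7 and 89.2 CPM in intact and 73.6 and 75.8 CPM in castrate Nkx-marked cells, and 54.3 and 49.8 CPM in Clu-marked cells. Its replicates agreed within 1.09-fold in every group, and no groups overlapped. Clu intact was 1.74-fold below Nkx intact (log2 fold change -0.80, SE 0.17, adjusted p = 0.0245). That call was lost without any 1 of the Nkx intact or Clu intact libraries (adjusted p between 0.143 and 0.26), while the log2 fold change stayed between -0.85 and -0.72. Clu intact against Nkx castrate gave -0.52 (SE 0.17, adjusted p = 0.0761), which upper quartile scaling (adjusted p = 0.0484) and DESeq2 (adjusted p = 0.0248) called. Castration gave -0.28 (SE 0.17, adjusted p = 0.385).

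**Figure D3:**
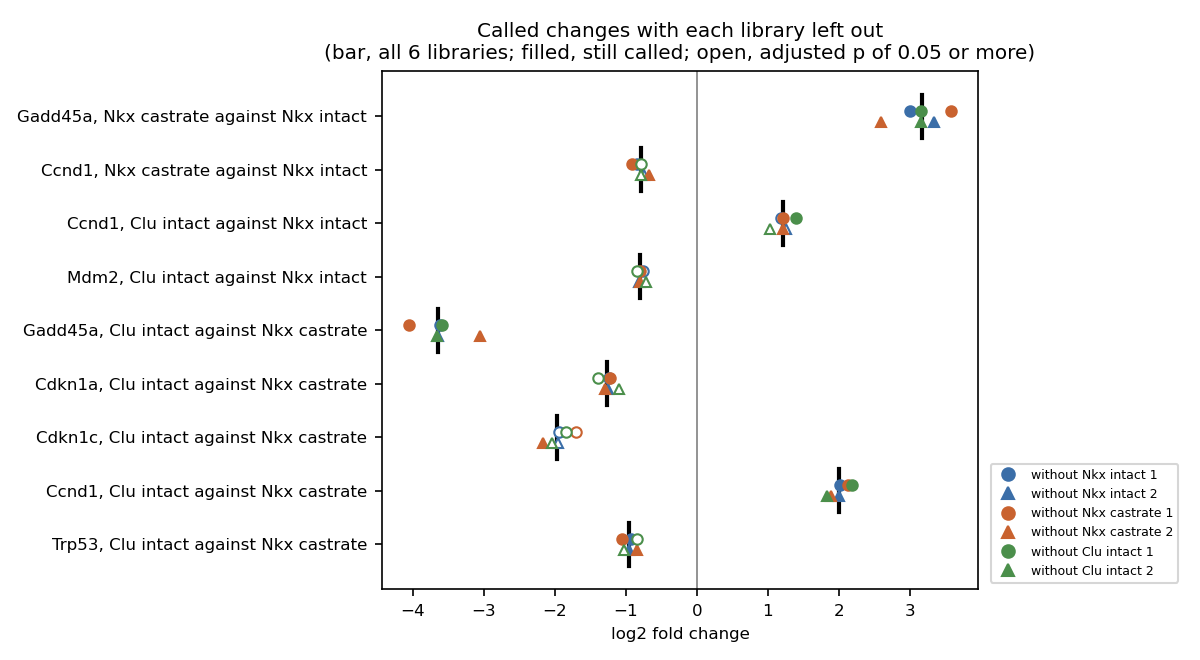
Log2 fold change (horizontal axis) of each called gene and comparison with all 6 libraries (black bar) and with each library left out (points, coloured by the group that lost a library, open where the adjusted p was 0.05 or more). The directions hold throughout, and Gadd45a with castration, Gadd45a for Clu intact against Nkx castrate, and Ccnd1 for Clu intact against Nkx castrate are the rows without an open point.

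The called genes among known p53 targets did not share 1 direction in the comparisons with Nkx castrate. Between the intact groups, those called were all lower in Clu intact. Of 26 tested, 1 rose and 3 fell with castration, 4 were lower in Clu intact than in Nkx intact, and 2 were higher and 3 lower in Clu intact than in Nkx castrate. The called shares were 15.4%, 15.4% and 19.2% in the same order, beside 8.61%, 11.3% and 16.9% of all tested genes. Their medians were -0.20, -0.38 and -0.17. Gdf15, a secreted stress cytokine, rose 16.6-fold with castration, from 18.4 ± 4.33 to 305 ± 116 CPM (SD, n = 2; adjusted p = 0.000966), and stayed called without any library. It was 53.1-fold lower in Clu intact than in Nkx castrate (adjusted p = 0.000209). Ccng1, the cyclin G1 gene, went the other way, from 113 ± 5.58 to 44.8 ± 11.5 CPM with castration (adjusted p = 0.00957), and was 2.60-fold higher in Clu intact than in Nkx castrate (adjusted p = 0.00508). Sesn1, which restrains mTORC1 signalling, fell 4.05-fold (adjusted p = 0.0353), with a log2 fold change of -2.02 that was -1.27 without Nkx intact 1. Btg2, an antiproliferative gene that is also an immediate early gene, was 6.99-fold lower in Clu intact than in Nkx intact (adjusted p = 0.000512) and 4.23-fold lower than in Nkx castrate (adjusted p = 0.000946). In Clu intact against Nkx intact, Sesn1 (3.84-fold, adjusted p = 0.0334) and Gdf15 (3.20-fold, adjusted p = 0.0191) were also lower. Calls over all genes also moved with the library left out. With castration they went from 1192 to 286 and 209 without Nkx intact 1 and 2 and to 2412 and 2384 without Nkx castrate 1 and 2, and the counts of called genes in the lists come from these same fits. Among p53 targets, the number that fell with castration was 0 and 1 when Nkx intact 1 and 2 were left out, and 9 and 6 when Nkx castrate 1 and 2 were. Those lower in Clu intact than in Nkx intact numbered 1 without Nkx intact 1 or either Clu library, 2 without Nkx intact 2, and 8 without either castrate library. Without Nkx castrate 1 or 2, 2 genes rose with castration. Against Nkx castrate, 7 were lower without Nkx castrate 2, and 1 was higher without either Nkx intact or either Clu intact library. Ccng1 lost its castration call without either Nkx intact library (adjusted p of up to 0.102). Sesn1 lost both calls without Nkx intact 1 or either Clu library, and Gdf15 its call between the intact groups without any library of those groups.

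Of 14 regulators of p53, 1 rose with castration and none was called between the intact groups. In Clu intact, 3 were lower than in Nkx castrate. These are 7.14%, 0 and 21.4% of the list, beside 8.61%, 11.3% and 16.9% of all tested genes. At an unadjusted p under 0.05, 1 regulator was lower between the intact groups, beside 26.2% of all tested genes in either direction. The deubiquitinase gene Usp10 rose 1.71-fold with castration (adjusted p = 0.0493) and was 1.65-fold lower in Clu intact than in Nkx castrate (adjusted p = 0.04). Mdm4, the partner of Mdm2, was 1.70-fold lower in that comparison (adjusted p = 0.0401), and the acetyltransferase gene Kat5 1.75-fold lower (adjusted p = 0.0487). All 3 lay near the threshold. None of these regulators was called lower without an Nkx intact or a Clu intact library, and Usp10 lost its castration call without any library other than Nkx castrate 1, where 2 regulators rose.

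Of 17 genes of D cyclin kinases, RB and E2F, 1 fell with castration, 1 was higher in Clu intact than in Nkx intact, and 3 were higher in Clu intact than in Nkx castrate. These shares, 5.88%, 5.88% and 17.6%, lay below or near those over all genes. Cdk6, a catalytic partner of D cyclins, was at 155 ± 11.6 CPM in Clu intact, 34.5 ± 7.19 CPM in Nkx intact and, in Nkx castrate, 40.1 ± 16.9 CPM (SD, n = 2), which is 4.50-fold (adjusted p = 0.00495) and 3.88-fold (adjusted p = 0.00533) higher in Clu intact. The phosphatase gene Cdc25a fell 2.85-fold with castration (adjusted p = 0.0158) and was 2.57-fold higher in Clu intact than in Nkx castrate (adjusted p = 0.0138). E2f8, named after its values were seen, completed the 3, at a log2 fold change of 3.39 (adjusted p = 0.0448). Cdk6 was not called between the intact groups once Nkx intact 2 was left out (adjusted p = 0.073). Without either Nkx intact library no gene of the list fell. Leaving out Nkx castrate 1 gave 4 such genes, and leaving out Nkx castrate 2 gave 2. Against Nkx castrate, 5 were higher without Nkx castrate 1 and 1 with either Clu intact library left out, where Cdc25a lost its call (adjusted p of up to 0.11).

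Of the 4 tested INK4 and related inhibitors, none was called by edgeR in any comparison, with 1 higher at an unadjusted p under 0.05 in each. Over all tested genes, 23.6%, 26.2% and 32.5% were at an unadjusted p under 0.05 in either direction, in the same order of comparisons. Cdkn2a, the gene of p16 and p19ARF, was not tested. It had 0 counts in 5 libraries and 4 counts in Clu intact 2, and a count of 0 allows up to 0.168 to 0.296 CPM at a floor of 3 counts a library. Cdkn2b had 0 counts in both Nkx intact libraries, 34 and 22 counts in the castrate libraries, and 9 and 19 counts in the Clu libraries.

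Of 12 genes of p27 turnover and FOXO control, edgeR called none with castration and none between the intact groups. In each, 1 was lower at an unadjusted p under 0.05, beside 23.6% and 26.2% of all tested genes in either direction. Of the 16 tested GADD45 partners and kinases of the p38 and JNK pathways, 1 rose with castration. In Clu intact, 1 was higher and 1 lower than in Nkx intact, and 2 were higher and 4 lower than in Nkx castrate. The called shares were 6.25%, 12.5% and 37.5%, beside 8.61%, 11.3% and 16.9% of all tested genes. Tet3, a dioxygenase of DNA demethylation, rose 1.91-fold with castration (adjusted p = 0.0244) and was 2.08-fold lower in Clu intact than in Nkx castrate (adjusted p = 0.00904). Mapk13, which makes p38 delta, was 2.66-fold higher in Clu intact than in Nkx intact (adjusted p = 0.0109) and 3.50-fold higher than in Nkx castrate (adjusted p = 0.00314). Tdg, a glycosylase of the same demethylation pathway, was 2.38-fold lower in Clu intact than in Nkx intact (adjusted p = 0.0286), and Map2k7, a JNK kinase that GADD45B is known to inhibit, 2.32-fold lower than in Nkx castrate (adjusted p = 0.0172). None of the 4 genes was called lower against Nkx castrate without either Clu intact library, and no castration call was left in this list without an Nkx intact or a Clu intact library. The calls of Mapk13 between the intact groups ended without Nkx intact 1 or either Clu library, and that of Tdg without any library of those groups.

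The called cycling genes had the direction of Ccnd1 in each comparison. Of 20, 3 fell with castration and 2 were higher in Clu intact than in Nkx intact. Against Nkx castrate, 10 were higher in Clu intact. These are 15%, 10% and 50% of the list, beside 8.61%, 11.3% and 16.9% of all tested genes. The list medians were -0.46, 1.28 and 2.74, beside the medians over all tested genes given above. Top2a, the topoisomerase of dividing cells, fell 9.05-fold with castration (adjusted p = 0.0195), the proliferation marker Mki67 6.32-fold (adjusted p = 0.0421) and Rrm2, a ribonucleotide reductase subunit, 5.26-fold (adjusted p = 0.00673). Against Nkx castrate, Clu intact was higher in Mki67 (94.1 ± 36.4 against 4.14 ± 3.98 CPM, SD, n = 2; adjusted p = 0.00449), in Top2a (20.5-fold, adjusted p = 0.0039) and in Ccnb2, a mitotic cyclin (18.7-fold, adjusted p = 0.0483). Against Nkx intact it was higher in the helicase gene Mcm6 (4.06-fold, adjusted p = 0.0308) and in Tyms, which makes thymidylate (3.18-fold, adjusted p = 0.046). In Nkx castrate 2, 7 of the 20 genes were at 0. Leaving out Nkx intact 1, Nkx intact 2 or Nkx castrate 1 gave 1, 0 and 7 that fell with castration, and without Nkx castrate 1 there were also 2 that rose. Those higher in Clu intact than in Nkx intact numbered 1 without Nkx intact 1, 0 without Nkx intact 2 or either Clu library, and 10 without either castrate library. Against Nkx castrate they numbered 4 without either Nkx intact library, 5 without Clu intact 1 and 3 without Clu intact 2. The castration values of Top2a and Mki67, -3.18 and -2.66 on the log2 scale, were -4.59 and -4.32 without Nkx castrate 1, and -2.53 and -1.95 without Nkx castrate 2. Top2a and Mki67 were no longer called with castration when either Nkx intact library was left out (adjusted p of up to 0.149 and 0.235), nor Mki67 when Clu intact 2 was (adjusted p = 0.0568), nor Rrm2 when Nkx intact 2 was (adjusted p = 0.0706). Tyms lost its call when any library of the intact groups was left out, Mcm6 when any of them but Nkx intact 1 was, and Ccnb2 when any library of those groups was (adjusted p of up to 0.299, 0.164 and 0.24). The log2 fold change of Mki67 between Clu intact and Nkx castrate was 6.13 at most and 3.76 at least in these fits, and that of Top2a 5.78 at most and 3.71 at least, called in each. That of Mcm6 between the intact groups, 2.02, was 2.98 without Nkx intact 1. That of Ccnb2 against Nkx castrate, 4.22, was 3.33 without Nkx castrate 2, the library in which it had 0 counts.

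Immediate early genes, which tissue dissociation is known to induce along with Gadd45b and Gadd45g, were low in Clu intact. The 20 listed genes summed to 30240 and 26739 CPM in intact and 34339 and 32750 CPM in castrate Nkx-marked cells, and 9155 and 7488 CPM in Clu-marked cells. Of them 14 were lower in Clu intact than in Nkx intact and 15 lower than in Nkx castrate, with none higher. The called shares were 5% with castration, 70% against Nkx intact and 75% against Nkx castrate, beside 8.61%, 11.3% and 16.9% of all tested genes. Medians of the Clu intact comparisons were -1.42 and -1.97. The zinc finger factor gene Egr1 was 5.88-fold and 7.07-fold lower, the nuclear receptor gene Nr4a1 6.63-fold and 6.57-fold, and the AP-1 gene Junb 5.62-fold and 5.86-fold, with adjusted p between 0.000213 and 0.000904. With castration 1 of the 20 was called, Fos, which rose 1.91-fold (adjusted p = 0.0376) and lost this call without either Nkx intact or either Clu intact library, while 4 rose without either castrate library and 2 fell without Nkx castrate 1. Leaving out Nkx intact 1, Nkx intact 2 or Clu intact 2 gave 8, 9 and 7 that were lower than in Nkx intact. The low sum in Clu intact stands beside the lower Gadd45a and Cdkn1a there than in Nkx castrate, and its part in those values was not tested.

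**Figure D4:**
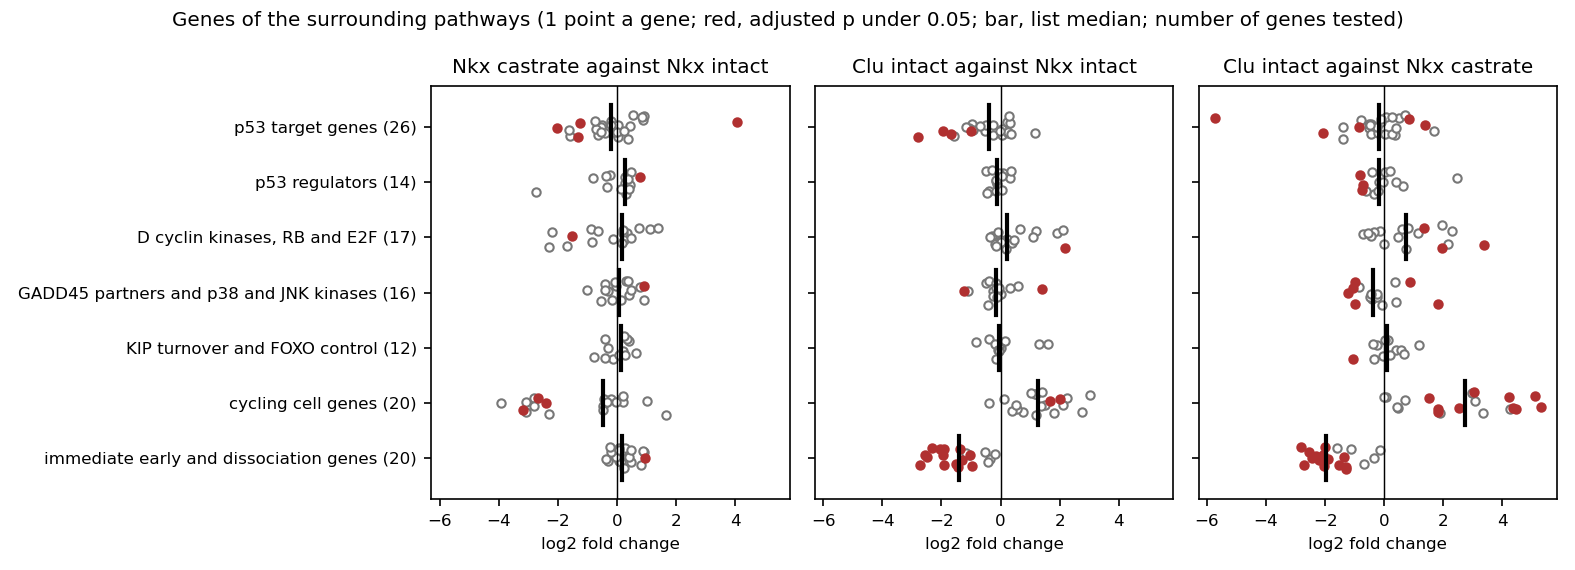
Log2 fold change (horizontal axis) of each tested gene in 7 gene lists around the 10 genes, by comparison, with red points for an adjusted p under 0.05 and black bars at list medians. Most immediate early genes lie left of 0 in both Clu panels, most cycling genes lie right of 0 for Clu intact against Nkx castrate, and the p53 targets fall on both sides.

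The genes most like each called member were sought among genes of at least 10 CPM, by the root mean square difference of centred log2 CPM over the 6 libraries (0 means the same pattern). For Gadd45a they were Sectm1a (0.38) and Vegfa (0.39), where Gadd45a itself varied by 1.61 around its mean. For Cdkn1a they were Spindoc (0.13) and Pcbp4 (0.15), and for Cdkn1c Fhl2 (0.14) and Shfl (0.19). For Ccnd1 they were Nbeal2 (0.15) and Trim65 (0.16). For Trp53 they were Gtpbp4 (0.061) and Bdp1 (0.064), and for Mdm2 Kcmf1 (0.047) and Polr1d (0.068). Among the 10 genes themselves, the closest pairs were Gadd45b with Gadd45g (0.27) and Cdkn1a with Cdkn1c (0.32), where Cdkn1a and Cdkn1c varied by 0.62 and 0.83 around their means. The next, Trp53 with Mdm2 (0.37), differed by about as much as each varied itself (0.41 and 0.33). All these patterns share the same 6 libraries, and about 9030 genes were searched for each.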

How the data were processed

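Raw counts by gene symbol, deposited by the authors, were used for 6 libraries, made from 2 ng of total RNA with a stranded low-input kit per the labels. The tools were STAR 2.7.9a, featureCounts of Subread 2.0.1 and FastQC 0.11.9 on the build GRCm39, per the submitters' processing notes. The annotation, strand setting and treatment of multiply aligned reads were not given in the sources used here. In R 4.3.3, edgeR 4.0.16 filtered genes (filterByExpr), scaled by TMM (factors 0.945 to 1.04) and fitted a quasi-likelihood model with a mean per group over all 6 libraries (3 residual degrees of freedom). Tests were two-sided, adjusted by Benjamini-Hochberg over 13846 genes and called at an adjusted p under 0.05. SE came from the fit. The method was also run on counts simulated with the spread fitted to these data, which cannot show whether the calls hold here. One count was worth 0.0561 to 0.0988 CPM. Limits of zero counts cover counting error only. Exon lengths and antisense overlaps came from GENCODE M21 on GRCm38.

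The 10 genes and the 13 lists beside them were chosen with earlier results of these data known. The rule named all 10 genes, up to 3 called genes per list and comparison with the largest change and at least 5 CPM in a group, and the 2 genes most like each called member. Marker lists were given as sums, with called genes counted for the stromal list with castration alone. Alternatives were each library left out in turn, other scalings and filters, a replicate block, a fit of only the compared groups, a minimum of 2-fold, limma-voom (limma 3.58.1) and DESeq2 1.42.0. The same alternatives were applied to the lists after the data were seen. Some genes that met the naming rule are not reported here.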

Additional observations from a re-analysis of the deposited data

How the results depend on the processing

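All 10 genes were followed through 16 alternatives in the 3 comparisons. Of 480 values, 421 kept direction and side of the threshold, 30 lost a call, 23 gained one and 6 changed sign. The sign changes were among uncalled values with a library left out. The log2 fold change of Cdkn1b lay between -0.18 and 0.24 with castration and between -0.072 and 0.35 for Clu intact against Nkx castrate. Between the intact groups, that of Gadd45b lay between -0.79 and 0.15 and that of Cdkn1a between -0.81 and 0.24.

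With castration, the 10 genes gave 1 higher and 1 lower. The count of lower genes was 0 with RLE scaling, upper quartile scaling, limma-voom, a 2-fold minimum or only the groups compared. Without a filter it was 2 (Ccnd2 added), with 4 higher (Gadd45b, Gadd45g and Cdkn1a added). Leaving out a library gave 1 to 3 higher and 0 to 2 lower. Between the intact groups, a 2-fold minimum gave 0 lower, and leaving out a library gave 0 to 1 higher and 0 to 1 lower. For Clu intact against Nkx castrate (1 higher, 4 lower), 2 were higher and 6 lower without a filter, and DESeq2 gave 2 higher and 7 lower. The count of lower genes was 5 with upper quartile scaling and 6 with a replicate block. It was 3 with library totals only, limma-voom, a 2-fold minimum or only the groups compared. Leaving out a library also changed both counts.

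Over all genes the calls were 1192, 1563 and 2342 in the same order of comparisons. They were 2300, 2665 and 3518 without a filter, and 2015, 2453 and 3362 with DESeq2. With only the groups compared they were 671, 3309 and 1616. Leaving out a library gave 209 to 2412, 391 to 3351 and 687 to 3854. A group then holds 1 library, assumed to vary like the others. That assumption is weak for Nkx castrate. Its libraries correlated at 0.920 in log2 CPM, against 0.956 for Nkx intact and 0.970 for Clu intact (Pearson).

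The labels do not say that a replicate number links libraries. Deviations of same-numbered libraries correlated at 0.090, 0.044 and 0.23 between the groups, across genes. With a replicate block, 2 of the 10 genes were higher with castration (Gadd45b added, adjusted p = 0.0274), and 2 were higher in Clu intact than in Nkx castrate (Ccnd2 added, adjusted p = 0.0321). Gadd45b and Gadd45g were then lower in that comparison (adjusted p = 0.00587 and 0.0197), in edgeR's test. Precision was limited by 2 libraries a group, and Cdkn1c, at 27 to 199 counts, was the least precise of the 10 genes.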
